A study of Homo sapiens with 12 samples.

Results

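The RNA of metallothionein and zinc-handling genes was followed in H460 and A549, human non-small cell lung cancer (NSCLC) lines, with and without ISP-I (isovalerylspiramycin I, a component of the macrolide antibiotic carrimycin). The 9 genes, of 19973 in the table, were MT1E, MT1F, MT1G, MT1M, MT1X and MT2A (metallothioneins), MTF1 (the zinc sensor) and SLC30A1 and SLC30A2 (zinc exporters). They were matched by symbol and were chosen from measured values of these same libraries, so their levels and changes are given as a description, without a test. Each line was labelled wild type (WT) in all libraries and was either non-treated (control) or exposed for 48 h to 10 µM ISP-I, and each of the 4 groups holds 3 of the 12 libraries. The paper states that both lines carry homozygous inactivating KEAP1 mutations, which the WT label does not show. The labels do not say whether the replicates were separate cultures, and they call the controls non-treated without naming a vehicle for the RNA samples. Each line is a single established cell line without tissue around it.

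Metallothioneins are small cysteine-rich proteins that bind zinc, copper and cadmium. When free zinc rises, the zinc-finger transcription factor MTF1 binds metal response elements in front of its target genes, among them metallothionein genes and SLC30A1, which codes for the plasma membrane zinc exporter ZnT1. SLC30A2 codes for ZnT2, which moves zinc into vesicles and is known for zinc secretion into milk. The metallothionein genes lie in a cluster on chromosome 16, where MT2A spans chr16:56608584-56609497 on hg38, MT1F chr16:56657731-56660698, MT1G chr16:56666730-56668065 and MT1X chr16:56682470-56684196. MTF1, SLC30A1 and SLC30A2 all lie on chromosome 1 on the minus strand, at chr1:37809574-37859592, chr1:211571568-211579161 and chr1:26037252-26046118.

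The 250 bases before the transcription start are shown for the members in which the core of the metal response element was found, since that element is what MTF1 reads. They come from a collection of RefSeq promoters (GRCh38.p14) that held an entry for 5 of the 9 members. Each entry had the start site that the deposited table lists. MT1E, MT1F, MT1G and MT1M had no entry in this collection, so their promoters were not searched. Sequences run 5′ to 3′ on the gene's strand, and capitals mark matches to TGCACNC or TGCGCNC on either strand, so that a match on the opposite strand reads as its reverse complement. The windows are chr16:56608334-56608583 (plus strand) for MT2A, chr16:56682220-56682469 (plus strand) for MT1X, chr1:26046119-26046368 (minus strand) for SLC30A2 and chr1:211579162-211579411 (minus strand) for SLC30A1.
MT2A: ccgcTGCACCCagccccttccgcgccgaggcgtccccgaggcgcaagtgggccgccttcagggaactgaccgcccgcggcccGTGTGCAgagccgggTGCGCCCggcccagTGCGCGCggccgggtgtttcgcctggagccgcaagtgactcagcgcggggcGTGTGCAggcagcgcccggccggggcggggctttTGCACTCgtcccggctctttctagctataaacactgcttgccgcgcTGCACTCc
MT1X: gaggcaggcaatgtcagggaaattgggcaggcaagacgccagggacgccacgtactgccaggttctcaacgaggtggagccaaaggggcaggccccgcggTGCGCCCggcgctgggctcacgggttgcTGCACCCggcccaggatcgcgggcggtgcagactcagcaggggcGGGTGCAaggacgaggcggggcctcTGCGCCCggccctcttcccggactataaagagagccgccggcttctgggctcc
SLC30A2: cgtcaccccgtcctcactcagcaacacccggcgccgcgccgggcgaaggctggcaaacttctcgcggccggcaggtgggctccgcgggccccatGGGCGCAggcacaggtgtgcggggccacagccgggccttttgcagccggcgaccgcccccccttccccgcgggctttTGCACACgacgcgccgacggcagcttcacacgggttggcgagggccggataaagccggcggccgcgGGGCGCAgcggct
SLC30A1: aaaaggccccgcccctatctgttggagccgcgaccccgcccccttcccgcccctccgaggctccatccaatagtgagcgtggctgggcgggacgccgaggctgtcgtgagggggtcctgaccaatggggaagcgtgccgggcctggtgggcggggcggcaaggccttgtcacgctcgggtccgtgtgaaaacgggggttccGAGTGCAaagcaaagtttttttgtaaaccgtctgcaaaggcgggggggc

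MT2A held 7 matches, MT1X 4, SLC30A2 3, SLC30A1 1 and MTF1 none. Of 35116 RefSeq promoters of the same length, 24.8% held at least 1 match, 1.58% at least 3, 0.370% at least 4 and 0.0313% at least 7. The single match of SLC30A1 was therefore a common state of a promoter, and the 7 of MT2A a rare one. The matches of MT2A reached from position -246 to position -2 relative to the start, and that of SLC30A1 lay at -49 to -43. A match is a description of the letters and not a measured binding site, and these data hold no measure of MTF1 binding or of zinc.

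**Figure D1:**
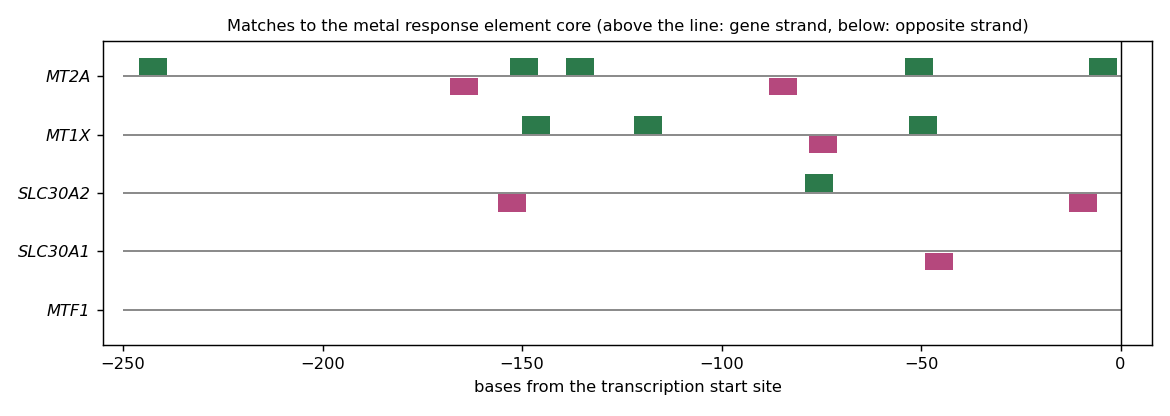
Positions of the matches to the metal response element core in the 250 bases before the transcription start, by gene (horizontal axis: bases from the start site; green boxes above a line: gene strand; pink boxes below: opposite strand). MT2A carries 7 boxes, MT1X 4, SLC30A2 3, SLC30A1 1 and MTF1 none.

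Expression was deposited as FPKM (fragments on a gene per unit of its listed length and of the library's total), and each library held 14225849 to 17874422 reads on genes. Epithelial marker genes summed to 1252 to 1826 FPKM in A549 libraries and 329 to 432 FPKM in H460 libraries, carried by keratins in H460, where the defining genes CDH1 and EPCAM averaged 0 and 0.0473 FPKM in controls. In A549, CDH1 (E-cadherin) fell with ISP-I from 4.90 ± 0.245 to 0.756 ± 0.153 FPKM (-1.75, SE 0.09, adjusted p = 2.7e-06, limma), and in H460 KRT19 fell from 122 ± 18.8 to 56.9 ± 4.59 FPKM (-1.08, SE 0.15, adjusted p = 2.5e-04, limma), which was -0.80 and no longer called with median-of-ratios scaling. KRT8 and KRT7, the highest of these markers by mean, were not called in either line, KRT8 in A549 only just (-0.99). The part of these markers in the results was not tested. In all libraries 8 blood, endothelial and fibroblast markers summed to 0.730 to 1.4 FPKM, led by COL1A1 and VWF, which were not called. In H460, ISP-I library 3 stood apart from ISP-I libraries 1 and 2. On the log2(FPKM + 1) scale its genes listed under 1000 bases lay 0.31 above these at the median, and its genes of 4000 bases or more lay 0.11 below (-0.11). Its genes of 1000 to 2000 bases lay 0.28 above. Its values for MT1G and MT2A, listed under 1000 bases, were 2.32 and 1.64 times the mean of libraries 1 and 2. MT1F (1852 bases) was 2.38 times that mean, and SLC30A2, a longer gene (3483 bases), 1.64 times. On the log2 scale MT1F lay 1.16 above, more than the median of genes of like length. The long genes MTF1 and SLC30A1 were at 0.759 and 0.789 times that mean. Results in H460 are therefore also given without library 3. In A549, control library 3 differed more from its replicates than they did from each other, and results are likewise given without it. The part of gene length in these differences was not tested.

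MT2A was by far the most abundant metallothionein. In H460 controls it stood at 133, 149 and 151 FPKM in libraries 1 to 3, and with ISP-I at 1356, 1183 and 2082 FPKM. In A549 controls it stood at 222, 197 and 334 FPKM, and with ISP-I at 1359.7, 1366 and 1274 FPKM. All ISP-I libraries of a line lay far above all its controls. In FPKM as deposited, the ISP-I libraries of the lines overlapped in level although the controls of H460 lay below those of A549. Median-of-ratios scaling would divide the H460 ISP-I libraries by 0.837 to 0.850 and the A549 ones by 1.086 to 1.088. Comparisons of level between the lines can therefore depend on the scaling, this overlap among them. The group means were 145 ± 9.76 (SD, n = 3) and 1540.3 ± 477 FPKM in H460, a ratio of 10.7, and 251 ± 73.0 and 1333 ± 51.3 FPKM in A549, a ratio of 5.31. By mean FPKM, MT2A moved from rank 216 to rank 17 among all genes in H460 and from rank 98 to rank 14 in A549. These are bulk samples, so more RNA per cell and a larger share of cells with the RNA cannot be told apart, here and for every gene below.

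MT1F, another zinc- and cadmium-binding metallothionein, was higher in A549 than in H460 both without and with ISP-I. Its A549 controls held 4.52, 4.19 and 6.95 FPKM and its A549 ISP-I libraries 84.1, 114 and 95.8 FPKM. The H460 controls held 0.638, 0.818 and 0.580 FPKM (16 to 23 reads) and the H460 ISP-I libraries 8.46, 8.14 and 19.8 FPKM. The 4 groups did not overlap and were ordered H460 control, A549 control, H460 ISP-I, A549 ISP-I. The ratio of ISP-I to control means was 17.9 in H460 and 18.8 in A549, from starting levels of 0.678 ± 0.124 and 5.22 ± 1.51 FPKM (SD, n = 3). It was 12.2 in H460 without ISP-I library 3 and 22.5 in A549 without control library 3.

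MT1G, a further member of the family, was higher in H460 than in A549 both without and with ISP-I. In H460 controls it held 0.463, 0.614 and 1.52 FPKM (5, 7 and 17 reads) and with ISP-I 21.8, 25 and 54.4 FPKM, a ratio of means of 39.0. Control library 3 held 17 of the 29 control reads, and the ratio was 62.7 without it and 27.1 without ISP-I library 3. In A549 it had no read in any control and 12, 19 and 8 reads with ISP-I, that is 1.07, 1.61 and 0.743 FPKM. Against a floor of 3 reads over the control group, the A549 level was at least 12.6-fold higher with ISP-I. That fold takes the ISP-I reads as exact. The A549 ISP-I libraries overlapped the H460 controls, while the H460 ISP-I libraries lay above every other group. Of the 75-base stretches of the MT1G transcript, 6.55% also occurred in another gene of the annotation, against 0% for MT1F and MT2A. The paper describes paired reads longer than these stretches, so this is not a share of reads that fit several genes.

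MT1X, MT1E and MT1M stayed at or near 0. MT1X rested on 0, 2 and 1 reads in H460 controls and 3, 4 and 14 with ISP-I, which is 6.31 times as many per total read with an exact 95% interval of 1.88 to 33.0 for counting error only. Library 3 gave 14 of those 21 reads, and without it the ratio was 3.01 with an interval of 0.686 to 18.0, which includes 1. In A549 it rested on 1, 8 and 3 reads and on 9, 8 and 5 reads, and the groups overlapped (1.78 times, interval 0.844 to 3.95). The A549 ratio of mean FPKM moved from 1.79 to 3.56 without control library 2. MT1E had 2 reads in all, both with ISP-I in H460, and MT1M 1 read, with ISP-I in A549 library 3. Levels of MT1E up to 0.0641 FPKM and of MT1M up to 0.132 FPKM in H460 controls could have given no read, from a floor of 3 reads over the group. Of MT1X's 75-base stretches, which are shorter than the paired reads, 36.1% also occurred in another gene. The share of its reads that fit several genes was not measured. A long noncoding RNA gene (ENSG00000259827) overlaps MT1X on the same strand. How reads shared by genes were counted is not stated, and the part of this counting in the low values was not tested.

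**Figure D2:**
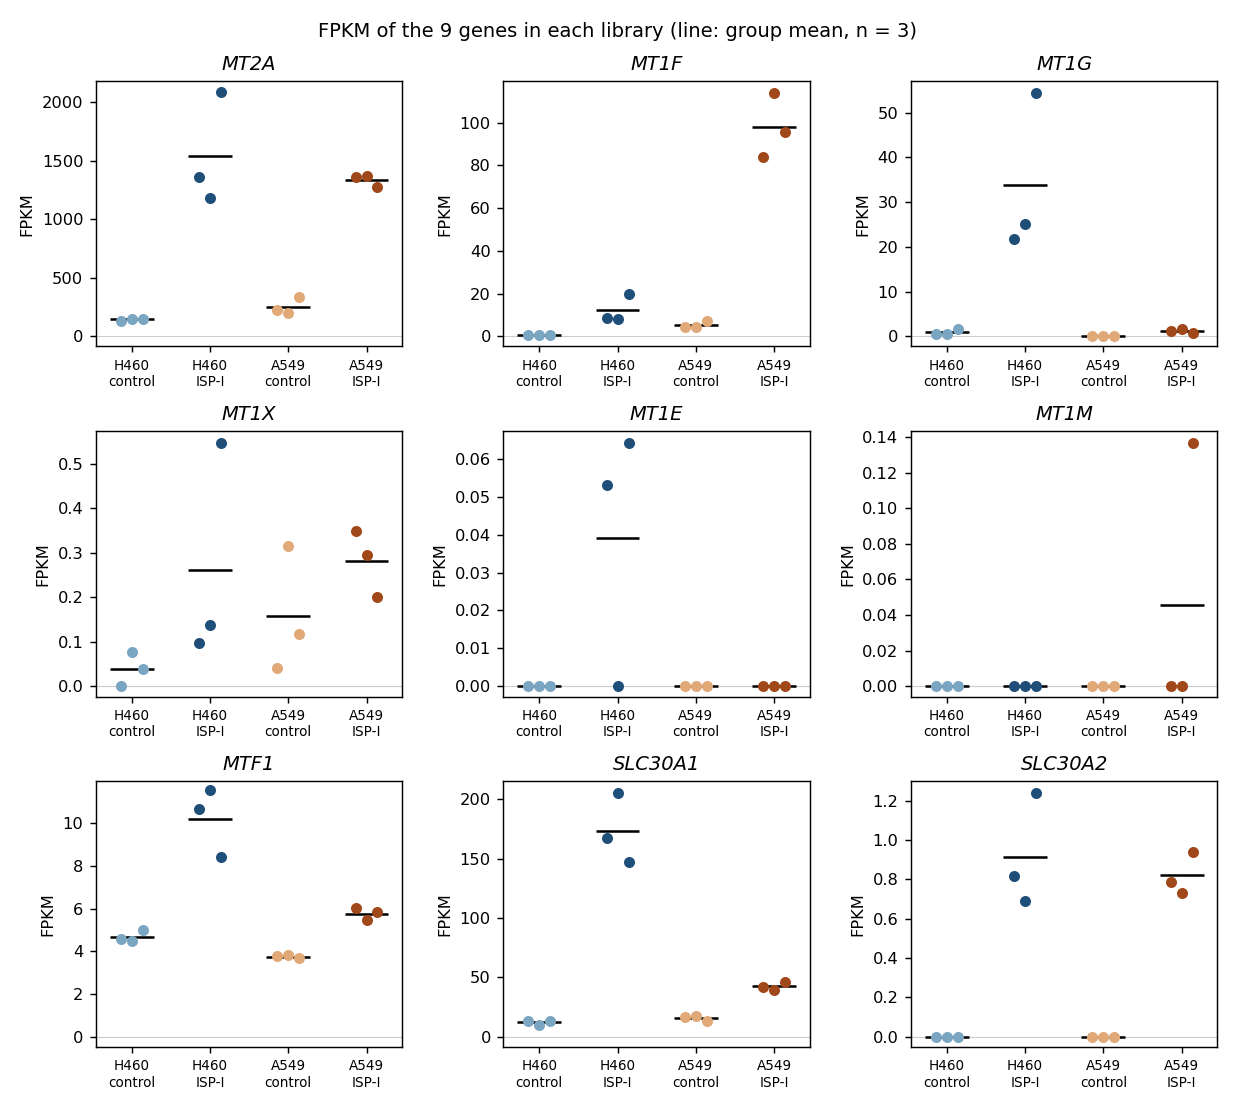
FPKM of the 9 genes in each library (vertical axes: FPKM, each with its own range from 0; points: libraries 1 to 3 from left to right in each group; lines: group means, n = 3). MT2A reaches 1183 to 2082 FPKM with ISP-I in both lines, MT1F is highest in A549 with ISP-I, MT1G and SLC30A1 in H460 with ISP-I, and MT1E and MT1M rest on 3 reads in all.

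SLC30A1, which exports zinc from the cell, reached a higher level with ISP-I in H460 than in A549. In H460 it stood at 12.7, 10.0 and 12.9 FPKM in controls and 168, 206 and 147 FPKM with ISP-I, a ratio of means of 14.6. In A549 it stood at 16.8, 17.2 and 13.5 FPKM in controls and 41.4, 39.1 and 46.2 FPKM with ISP-I, a ratio of 2.67. H460 was thus the lower line before ISP-I and the higher line after it, with no overlap between neighbouring groups at either point. SLC30A2 had no read in any of the 6 controls. With ISP-I it held 51, 40 and 64 reads in H460 (0.819, 0.689 and 1.24 FPKM) and 41, 40 and 47 reads in A549 (0.788, 0.732 and 0.941 FPKM). Against 3 reads over the control group, this was at least 46.5-fold higher in H460 and at least 41.5-fold higher in A549. Both folds take the ISP-I reads as exact. The lines overlapped with ISP-I.

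MTF1, the factor that senses zinc, had smaller ratios than MT2A, MT1F, MT1G and SLC30A1 in each line. It held 4.59, 4.47 and 4.98 FPKM in H460 controls and 10.7, 11.6 and 8.44 FPKM with ISP-I, a ratio of 2.18. In A549 it held 3.77, 3.82 and 3.67 FPKM in controls and 6.04, 5.45 and 5.82 FPKM with ISP-I, a ratio of 1.54. No groups overlapped, and the levels were ordered A549 control, H460 control, A549 ISP-I, H460 ISP-I. The transcript level does not tell how much of the protein is active in zinc sensing.

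On the log2(FPKM + 1) scale, which understates the change of low genes, the differences between ISP-I and control were as follows, with their SE in parentheses. In H460 they were 3.36 (0.23) for MT2A, 2.86 (0.29) for MT1F, 4.14 (0.34) for MT1G, 0.26 (0.12) for MT1X, 3.75 (0.16) for SLC30A1, 0.93 (0.10) for SLC30A2 and 0.97 (0.13) for MTF1. In A549 they were 2.44 (0.18), 4.01 (0.17), 1.08 (0.13), 0.15 (0.09), 1.37 (0.11), 0.86 (0.06) and 0.51 (0.07) in the same order of genes. The median over all genes tested was -0.15 in H460 and 0.02 in A549. Of the 9 members 7 passed the filter of a mean of at least 0.1 FPKM in each line, SLC30A2 in both lines, MT1X in H460 and MT1G in A549 only through their ISP-I libraries, and MT1E and MT1M did not pass. Every ISP-I library lay above every control for these 7 in H460 and for 6 of them in A549, MT1X being the exception, where 29.6% of genes tested in H460 and 34.8% in A549 did so. Because the members were chosen by such changes, nothing is read from these counts.

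Without ISP-I library 3, the H460 differences on this scale were 3.12 for MT2A, 2.47 for MT1F, 3.75 for MT1G, 3.86 for SLC30A1, 0.81 for SLC30A2 and 1.09 for MTF1. MT1X then fell under the filter. The metallothionein differences were smaller and those of SLC30A1 and MTF1 larger without that library, and all kept their direction. Without control library 3, the A549 differences were 2.67 for MT2A, 4.20 for MT1F, 1.08 for MT1G, 1.26 for SLC30A1 and 0.50 for MTF1. Scaling by median-of-ratios factors moved the median of all genes in H460 from -0.15 to 0.01, and the H460 differences of MT2A and SLC30A1 were 3.64 and 4.03 beside that median.

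**Figure D3:**
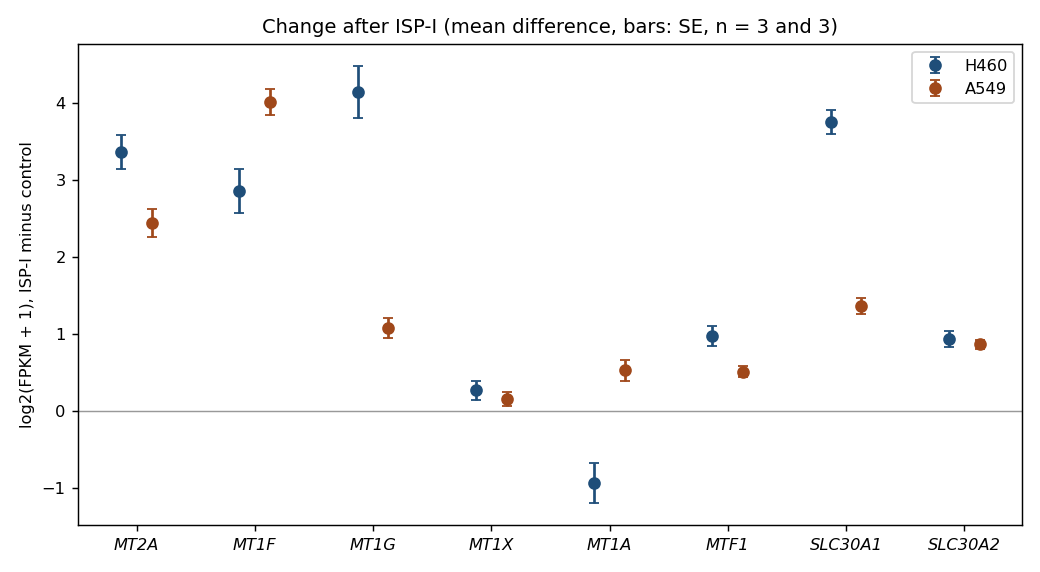
Difference between ISP-I and control in mean log2(FPKM + 1) for 7 members and MT1A in H460 (blue) and A549 (brown); bars are SE, n = 3 and 3. SLC30A1 lies at 3.75 in H460 and 1.37 in A549 and MT1A below 0 in H460 (-0.94), while the places of the low genes depend on the pseudocount (MT1F at 2.86 and 4.01, but at 3.86 and 4.23 with a pseudocount of 0.1), and the A549 controls of MT1G held no reads.

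MT1A, a metallothionein outside the 9, was the only other gene of its family seen above trace level. Of 15 other metallothionein genes and pseudogenes listed, 6 had values and the rest could not be read. In H460 MT1A held 31.2, 31.1 and 27.6 FPKM in controls and 12.9, 10.8 and 24.8 FPKM with ISP-I. In FPKM as deposited, every ISP-I library thus lay below every control, while MT2A, MT1F and MT1G were higher. Median-of-ratios scaling would divide ISP-I library 3 by 0.844 and control library 3 by 1.03, so this separation of MT1A depends on the scaling. The difference was -0.94 (SE 0.26, adjusted p = 0.012, limma with Benjamini-Hochberg adjustment), short of the 2-fold limit. It was -1.28 and past that limit without ISP-I library 3, and shrank to -0.67 (adjusted p = 0.048, limma) with median-of-ratios scaling. In A549 MT1A was scarce, at 1.60, 1.55 and 2.39 FPKM in controls and 2.54, 3.54 and 3.17 FPKM with ISP-I (9 to 22 reads a library), a difference of 0.53 (SE 0.14, adjusted p = 0.012, limma). The change differed between the lines by -1.46 (SE 0.33, H460 minus A549, adjusted p = 0.0027, interaction in limma over 12 libraries), where 16% of genes tested were called. MT4, next of the family by mean FPKM, held 5 reads in all, in 1 ISP-I library of H460, and MT3, a longer gene, held 8.

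The mix of metallothionein RNA shifted differently in the lines. In H460 controls, MT2A made up 80.5 to 83.5% and MT1A 15.3 to 18.9% of the summed FPKM of the 6 members and MT1A. With ISP-I, MT2A made up 95.4 to 96.9%, MT1G 1.56 to 2.49% and MT1A 0.877 to 1.14%. In A549 controls MT2A made up 97.0 to 97.3% and MT1F 1.98 to 2.06%, and with ISP-I MT2A made up 92.0 to 93.9% and MT1F 5.81 to 7.67%. The share of MT2A was thus higher with ISP-I in H460 and lower with ISP-I in A549, with no overlap in either line. The ratio of MT2A to MT1F FPKM was 47.1 to 49.1 in A549 controls and 12 to 16.2 with ISP-I, and ran from 183 to 260.4 in H460 controls and from 105 to 160.3 with ISP-I. These shares depend on the gene length used. The table lists 914 bases for MT2A and 1852 for MT1F where the MANE Select transcripts, the standard transcript of each gene, have 401 and 425. With those lengths the mean MT2A share was 90.5% and 96.5% in H460 and 95.8% and 87.5% in A549, control and ISP-I, and the direction in each line was the same. Other shares moved more, with a mean for MT1A in H460 controls of 8.26% in place of 17.1%, and for MT1F in A549 of 3.81% and 12.3%, control and ISP-I, in place of 2.02% and 6.82%.

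**Figure D4:**
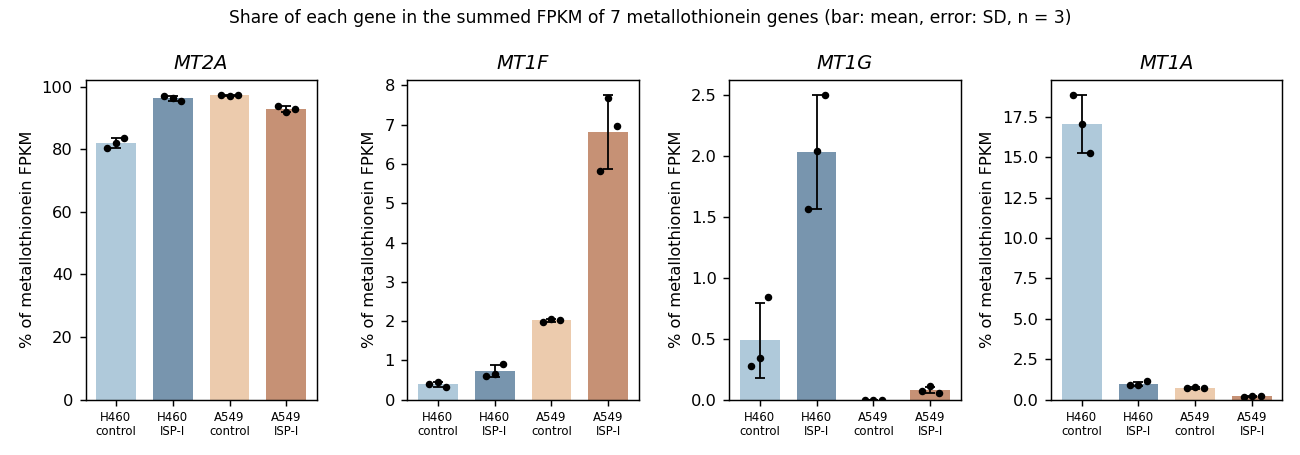
Percent of the summed FPKM of 7 metallothionein genes held by MT2A, MT1F, MT1G and MT1A (vertical axes: percent, from 0, each with its own range; bars: means; error bars: SD, n = 3; points: libraries). In H460, MT1A holds 15.3 to 18.9% in controls and 0.877 to 1.14% with ISP-I, and in A549, MT1F holds 1.98 to 2.06% and 5.81 to 7.67%.

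The other zinc transporters were read from lists of the SLC30 exporters, which move zinc out of the cytosol, and the SLC39 importers, which move it in. Of 22 such genes 17 were tested in H460, where 1 was called higher and 3 lower in limma (adjusted p under 0.05 with more than a 2-fold change), against 10.5% of all genes called higher and 15.2% called lower. SLC30A7, an exporter of the secretory pathway, rose from 3.41 ± 0.292 to 12.5 ± 1.93 FPKM (SD, n = 3), a log2 difference of 1.60 (SE 0.13, adjusted p = 1.3e-05, limma). SLC39A8, a plasma membrane importer of zinc and manganese, fell from 18.3 ± 3.15 to 4.94 ± 0.239 FPKM (-1.69, SE 0.14, adjusted p = 1.2e-05, limma). SLC39A11 fell from 4.33 ± 0.458 to 1.24 ± 0.0810 FPKM (-1.25, SE 0.11, adjusted p = 1.6e-05, limma). SLC30A5, another exporter of the secretory pathway, fell from 12.7 ± 0.692 to 5.77 ± 0.537 FPKM (-1.02, SE 0.11, adjusted p = 6.9e-05, limma), and was -0.77 and no longer past the 2-fold limit with median-of-ratios scaling. The median log2 difference of the 17 was -0.51, beside -0.15 over all genes. At an adjusted p under 0.05 in limma and any fold, 3 of the 17 were higher and 10 lower. The lower ones were 3 exporters and 7 importers. The share of all genes at that limit is not given here.

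In A549, none of 18 zinc transporters tested was called in limma, against 4.2% of all genes called higher and 3.51% called lower. At an unadjusted p under 0.05 and any fold there were 9, and at an adjusted p under 0.05 and any fold 4 were higher and 3 lower. SLC30A3 held 0.80 ± 0.117 FPKM in A549 controls and 2.51 ± 0.188 with ISP-I, a ratio of means of 3.14. Its log2 difference was 0.97 (SE 0.08, adjusted p = 3.3e-05, limma), just short of the 2-fold limit. It was called with a pseudocount of 0.1 (1.54). limma voom on the recovered reads called 1 with library totals (SLC30A3, 1.65) and 2 with median-of-ratios (SLC30A3, 1.62, and SLC39A8, -1.01). SLC39A8 held 6.23 ± 0.997 FPKM in A549 controls and 3.14 ± 0.227 with ISP-I (-0.79, SE 0.11, adjusted p = 5.2e-04, limma), and SLC39A11 5.82 ± 0.271 and 3.58 ± 0.451 FPKM (-0.58, SE 0.09, adjusted p = 9.6e-04, limma). SLC30A7 held 4.18 ± 0.95 and 5.39 ± 0.152 FPKM (0.32, SE 0.13, adjusted p = 0.066, limma). Its change differed between the lines by 1.28 (SE 0.19, H460 minus A549, adjusted p = 1.4e-04, limma interaction), the only zinc transporter called in that direction, while SLC30A3 was called in the other (-1.41). SLC39A7 and SLC39A14, importers with the highest means of their list, held 66.3 and 71.6 FPKM and 26.8 and 34.6 FPKM in H460, control and ISP-I, and neither was called in either line. SLC39A14 was nonetheless higher in H460 (0.36, SE 0.10, adjusted p = 0.014, limma). In A549 it went from 32.5 to 45.4 FPKM (0.47, SE 0.06, adjusted p = 3.6e-04, limma). SLC39A7 was at 0.09 in H460 and -0.12 in A549 (adjusted p = 0.60 and 0.18, limma). SLC30A6, the exporter with the highest mean of its list, held 10.3 and 6.96 FPKM in H460 and 12.6 and 15.8 FPKM in A549 and was not called. Its differences were -0.51 and 0.30 (adjusted p = 0.0075 and 0.014, limma).

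**Figure D5:**
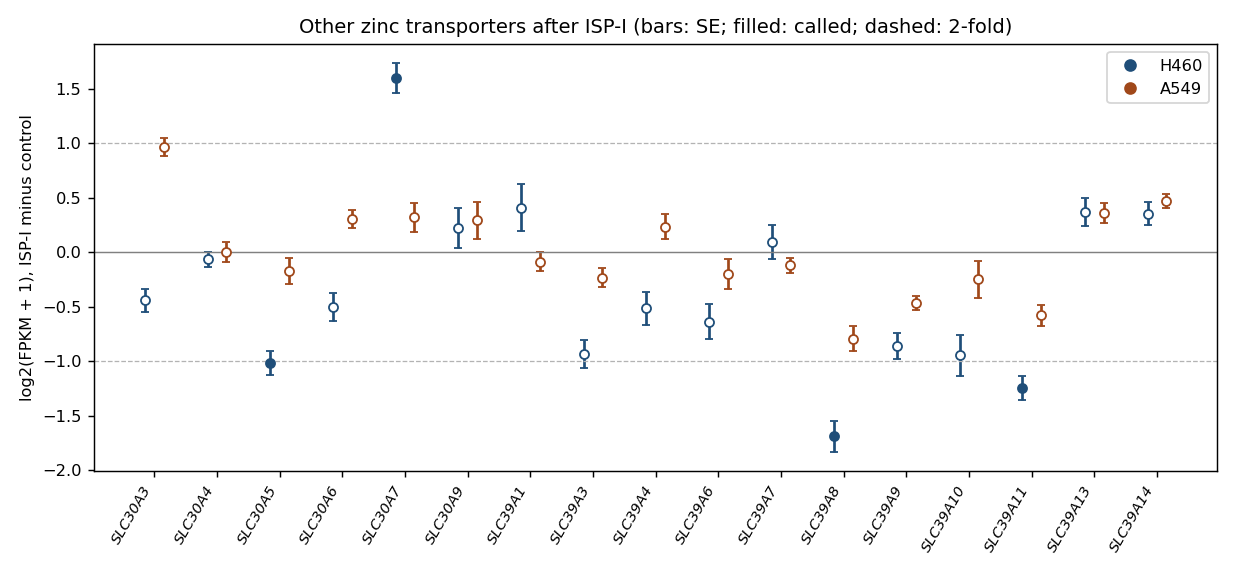
Difference between ISP-I and control in mean log2(FPKM + 1) for the other zinc transporters tested in both lines (blue: H460; brown: A549; bars: SE, n = 3 and 3; filled: called; dashed lines: 2-fold). In H460, SLC30A7 is called higher (1.60) and SLC30A5, SLC39A8 and SLC39A11 lower (-1.02, -1.69 and -1.25), and no A549 point is filled.

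Copper, which metallothioneins also bind, was followed through 15 genes of copper handling, 13 of them tested. In H460, 2 were called lower, beside 15.2% of all genes tested. STEAP3, a reductase of iron and copper, fell from 21.8 ± 0.718 to 4.02 ± 0.594 FPKM (-2.19, SE 0.12, adjusted p = 1.6e-06, limma) and COX11, which delivers copper to cytochrome c oxidase, from 13.1 ± 1.01 to 5.75 ± 0.627 FPKM (-1.07, SE 0.12, adjusted p = 7.1e-05, limma). COX11 was -0.82 and not called with median-of-ratios scaling. Of the copper genes in H460, 1 was higher and 8 were lower at an adjusted p under 0.05 in limma and any fold. In A549, none of the copper genes was called in limma, where 4.2% of all genes tested were called higher and 3.51% lower. With limma voom none was called under either scaling. At an unadjusted p under 0.05 in limma there were 6, and at an adjusted p under 0.05 and any fold 3 were higher and 2 lower. SCO1, another copper chaperone of the oxidase, held 12.4 and 12.6 FPKM in H460 and 12.9 and 20.1 FPKM in A549, control and ISP-I. Its difference was 0.02 in H460 (adjusted p = 0.89, limma). In A549 it was 0.60 (SE 0.07, adjusted p = 1.5e-04, limma), short of the 2-fold limit.

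Of 10 other genes tied to MTF1 or to the metal response in the literature at large, 9 were tested in each line, and 2 were called higher in H460 and 3 in A549, beside 10.5% and 4.2% of all genes tested. HMOX1, the heme-degrading oxygenase, rose from 53.2 ± 4.11 to 2906 ± 645 FPKM in H460 (5.72, SE 0.19, adjusted p = 2.2e-07, limma) and from 44.7 ± 6.26 to 465 ± 35.6 FPKM in A549 (3.36, SE 0.11, adjusted p = 3.9e-07, limma). CSRP1, a LIM-domain protein, was called higher in H460 and not in A549, from 58.5 to 137 FPKM (1.21, SE 0.14), and the difference between the lines stayed short of the limit of 1 (0.68, adjusted p = 0.0035, limma interaction). PGF (placental growth factor) and NDRG1 were called higher in A549 and not in H460, from 0.221 to 2.19 FPKM (1.38, SE 0.07) and from 4.96 to 12.8 FPKM (1.21, SE 0.08). The difference between the lines was called for PGF (-1.14, adjusted p = 1.1e-05, limma interaction) and not for NDRG1 (-0.75). In H460, PGF was at 0.24, and at 1.11 and past the 2-fold limit with limma voom and median-of-ratios. TXN, the highest of the list after HMOX1, held 468 and 411 FPKM in H460 and 452 and 583 FPKM in A549, control and ISP-I, and was not called. No gene of this list was called lower. GCLC, a gene of glutathione synthesis, fell in A549 from 19.0 ± 1.85 to 9.17 ± 0.535 FPKM, just short of the 2-fold limit (-0.98, SE 0.09, adjusted p = 4.3e-05, limma). With median-of-ratios scaling H460 had 3 calls upward, while A549 had 3 upward and 1 downward (GCLC, -1.001).

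The genes whose pattern over the 12 libraries was nearest to that of 4 members were sought among the 6645 genes that averaged 5 FPKM or more, by the root mean square difference of centred log2(FPKM + 1). Nearest to MT2A were GADD45A (0.255) and S100A2 (0.367). S100A2 held 4.46 and 54.2 FPKM in H460 and 4.0 and 42.2 FPKM in A549, control and ISP-I. Nearest to SLC30A1 were DNAJB9 (0.178), at 2.88 and 43.0 FPKM in H460 and 3.73 and 12.8 FPKM in A549, and FAM83G (0.215). Nearest to MTF1 were PITPNB (0.0708) and NSMAF (0.0723), and nearest to MT1E, which had next to no reads, were RAB22A (0.0519) and PSPC1 (0.0631), genes with nearly flat levels. This is a likeness of pattern in 12 libraries of 4 groups and nothing more.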

How the data were processed

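Per the submitters' processing notes, the authors used FastQC, HISAT2 on hg38 and HTSeq (version 0.9.1), and deposited FPKM. The strand setting and annotation version are not given in the sources used here. FPKM times listed length came in whole multiples of the value of 1 read (within 0.1 read), which gave reads and depth. Columns named the line, the treatment and a number running from 1 to 6 through each line, which does not match the labels' replicate numbers, so libraries were numbered 1 to 3 in column order within a group. Broken lines of the table (4) were left out. Libraries of a group differed by 3.03 to 98.7 times read sampling (chi-square per degree of freedom), so each was counted. P-values measure the spread between libraries, which may be technical.

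The members and lists were chosen with earlier results of these data known. Differences in log2(FPKM + 1) were fitted within each line by limma 3.58.1 (R 4.3.3, mean-variance trend, checked on simulated data), keeping genes that averaged 0.1 FPKM or more, and adjusted by Benjamini-Hochberg over all of them. A call needed an adjusted p under 0.05 and more than a 2-fold change. The lines were compared by the interaction term over 12 libraries, called past 1 on the log2 scale. Of the other lists, genes called in a line and the 2 with the highest mean were named, and other named genes were chosen after their values were seen. Alternatives were a pseudocount of 0.1, a minimum mean of 1 FPKM or none, median-of-ratios scaling, limma voom on recovered reads (10 or more in 3 libraries), a joint fit of 12 libraries and leaving out each library. MANE Select lengths and ratios without single libraries were added after seeing the data. Floors cover counting error in the controls only and take the ISP-I reads as exact. Intervals cover counting error only. Python 3.11.15, pandas 2.3.3 and numpy 2.4.6 read the tables.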

Additional observations from a re-analysis of the deposited data

Results flagged for a closer look

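For 9 genes of the other lists, the change after ISP-I differed between the lines in the interaction of line and treatment (limma over 12 libraries, log2 scale, H460 minus A549, called past 1 and at an adjusted p under 0.05), where 16% of genes tested were called. The values were -1.46 for MT1A, -1.41 for SLC30A3, 1.28 for SLC30A7, -2.05 for STEAP3, 1.05 for GCLC, -1.14 for PGF and 2.37 for HMOX1, and, among the epithelial markers, 1.14 for KRT18 and 1.77 for CDH1. CDH1 had no reads in H460 controls and fell in A549, and KRT18 held 70.3 and 134 FPKM in H460 and 331 and 275 FPKM in A549, control and ISP-I. SLC30A3, a zinc exporter known from synaptic vesicles, held 2.24 ± 0.263 FPKM in H460 controls and 1.38 ± 0.125 with ISP-I (SD, n = 3), and 0.80 ± 0.117 and 2.51 ± 0.188 FPKM in A549. Every ISP-I library of SLC30A3 lay below every control in H460 and above every control in A549. GCLC, the catalytic subunit of the first step of glutathione synthesis, held 12.1 and 12.8 FPKM in H460 and 19.0 and 9.17 FPKM in A549, control and ISP-I. The difference was not called for MT1A in limma voom with median-of-ratios (-1.42), for PGF with median-of-ratios scaling (-0.98), for KRT18 without A549 control library 3 (0.97) and for GCLC without H460 control library 2 (0.99).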

How the results depend on the processing

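No member's difference turned its direction, in 87 values from alternative settings and in 83 from leaving out a library. Each value is for a single member, line and setting, and values of the same refit are not separate analyses. The 22 of the former that moved by more than the spread between libraries were chiefly low genes under a smaller pseudocount or voom. Where the controls held no reads, as for SLC30A2, the fitted difference rests on the value added to 0 and is no bound (0.81 to 6.38 in A549). Genes called in H460 numbered 3456, and 5786 with a pseudocount of 0.1, 6026 with voom on library totals and 5825 with voom and median-of-ratios. In A549 they numbered 1056, and 2398, 2590 and 2593. For the difference between the lines they numbered 2234, and 4239, 4381 and 4023. Leaving out a library gave 3292 to 3752, 1042 to 1096 and 2035 to 2647. With median-of-ratios scaling the split was 1957 higher and 1511 lower in H460 against 1409 and 2047, and 1300 and 827 against 827 and 1407 between the lines. Zinc transporters called in A549 numbered 0, and 1 with a pseudocount of 0.1, 1 with voom on library totals and 2 with voom and median-of-ratios. Leaving out a library gave 0 to 1, the 1 being SLC30A3 without control 2 (1.0) or ISP-I 3 (1.0), and 3 to 5 in H460 beside 4 (1 higher and 3 lower). In H460 there were 6 (1 and 5) with a pseudocount of 0.1 and with voom on library totals, and 2 higher and 2 lower with voom and median-of-ratios. SLC30A5 lost its call without H460 control 1 (-0.98) and ISP-I 1 (-0.95). Near 0, TXN in H460 turned from -0.24 to 0.038 with median-of-ratios scaling and 0.037 with voom and median-of-ratios, KRT8 in H460 from -0.036 to 0.25 in both, and COL1A1 in A549 from 0.0098 to -0.0048 and -0.0049. Leaving out a library gave -0.024 to 0.065 for SCO1 in H460 (below 0 without control 3 or ISP-I 1) and -0.045 to 0.22 for SLC39A7 in H460 (below 0 without ISP-I 3), -0.087 to 0.049 for KRT8 in H460 (above 0 without control 2 or ISP-I 2) and -0.050 to 0.10 for COL1A1 in A549 (below 0 without control 1, control 3 or ISP-I 2). VWF in A549 was called with a pseudocount of 0.1 (1.97) and voom (5.99 and 5.96). GCLC in A549 was called lower with a pseudocount of 0.1 (-1.04), median-of-ratios scaling (-1.001) and voom (-1.05 and -1.08). GCLC was also called lower there without control 3 (-1.05) or ISP-I 2 (-1.0004). KRT8 in A549 was called with median-of-ratios scaling and with voom and median-of-ratios (-1.03 in both). It was also called without control 1 (-1.09), control 2 (-1.01) or ISP-I 3 (-1.01). KRT18 in H460 was called with the same 2 settings (1.18 and 1.19) and without ISP-I 2 (1.05). KRT19 in H460 lost its call with these settings (-0.80 and -0.81) and without control 2 (-0.97). The causes were not tested. No paired analysis was possible because the columns are numbered 1 to 6 through each line, so that no control shares a number with an ISP-I library, and nothing ties them to the replicate numbers of the labels. Members at a few reads (MT1E, MT1M and MT1X) are limited by depth, and 3 libraries a group limit every SE.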
